A study of Rattus norvegicus with 33 samples.

Results

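Spinal cord transection leaves the soleus, a postural muscle of the calf, paralyzed but still joined to its motor nerve. The data described here are those of 12 arrays from transected rats, 3 each of SCI, SCI-ES 1 day, SCI-ES 3 days and SCI-ES 7 days, set against 3 arrays of Sham-SCI rats, out of 33 arrays in all. They were chosen by their labelled spine surgery alone, and the question was which differences from Sham-SCI were present in all 4 transected groups whatever the stimulation. All animals were female Wistar rats, with 1 animal for each array. SCI and SCI-ES rats had a complete transection at 9 weeks of age between the vertebrae T9 and T10. At 14 weeks after it they had a second operation, in which the distal tendon of the left gastrocnemius was cut. In SCI-ES rats a nerve stimulator was implanted at that operation, electrical stimulation (ES) began 16 weeks after transection for 1 hour a day, and soleus was taken after 1, 3 or 7 days of it, as the sample labels give the days (the series' design text gives another middle day). SCI rats had the same operations without an implant, and their muscle was taken 21 days after the second one. Sham-SCI rats had a laminectomy at the same age, in which the cord was exposed and not cut, and neither tenotomy nor implant. Transection, the second operation and the time since it therefore cannot be told apart in the comparison with Sham-SCI. The remaining 18 arrays are of rats with an intact cord from a separate experiment, 22 to 23 weeks old, 9 of them with the gastrocnemius tendon cut (GA) and 9 with a sham of that operation (Sham-GA), 3 each at 1, 3 and 7 days after it, which were used here only as further intact muscle.

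Rat soleus is made mostly of slow fibers, which contract weakly for long periods and burn fat and ketone bodies in mitochondria. Slow fiber genes are maintained by the steady firing of the motor nerve, in part through calcineurin, a phosphatase that calcium switches on and that sends NFAT transcription factors into the nucleus. When that firing is lost, soleus is known to shrink, to shift from slow to fast myosins and to gain connective tissue made by fibroblasts, whose growth and matrix production are tuned by secreted factors such as Wnt ligands and their antagonists.

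Of the genes that were called changed in each of the 4 transected groups taken singly, Scd and Igfbp5 were among the rises and Wnt16 and Bdh1 among the falls. Their promoters are shown as examples. With the mean of the 4 transected groups set against Sham-SCI, these genes were called whichever single array was left out. The same was true of Itm2a, Gstm5, Zfp385b, Zp2, Ak4 and Cacna1e, whose promoters are not shown. The sequences run 5′ to 3′ along the gene's strand, with 250 bases before and 50 after the start of the gene, from RefSeq on the rat build GRCr8: Scd at chr1:253231682-253231981 (minus strand), Igfbp5 at chr9:81914138-81914437 (minus strand), Wnt16 at chr4:51786478-51786777 (plus strand) and Bdh1 at chr11:82842587-82842886 (minus strand). Capitals mark the core letters of an NFAT site, TGGAAA, on either strand, so that TTTCCA is the same letters on the other strand.
Scd: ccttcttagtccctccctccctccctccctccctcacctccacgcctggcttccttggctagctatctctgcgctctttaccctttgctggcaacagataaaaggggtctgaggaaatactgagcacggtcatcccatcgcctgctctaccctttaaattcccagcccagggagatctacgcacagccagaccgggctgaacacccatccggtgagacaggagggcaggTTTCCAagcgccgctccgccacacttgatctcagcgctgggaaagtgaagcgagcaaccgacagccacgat
Igfbp5: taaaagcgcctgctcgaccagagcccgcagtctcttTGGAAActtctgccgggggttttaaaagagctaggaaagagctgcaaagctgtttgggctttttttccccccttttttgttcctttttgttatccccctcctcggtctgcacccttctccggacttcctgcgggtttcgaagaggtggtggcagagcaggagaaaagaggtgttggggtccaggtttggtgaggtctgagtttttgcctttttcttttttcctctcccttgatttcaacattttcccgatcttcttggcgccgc
Wnt16: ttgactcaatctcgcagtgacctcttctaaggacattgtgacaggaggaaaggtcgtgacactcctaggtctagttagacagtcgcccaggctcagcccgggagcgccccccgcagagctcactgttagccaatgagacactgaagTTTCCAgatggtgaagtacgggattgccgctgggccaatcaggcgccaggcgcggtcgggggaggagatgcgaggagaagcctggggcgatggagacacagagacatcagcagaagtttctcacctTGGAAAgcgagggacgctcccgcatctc
Bdh1: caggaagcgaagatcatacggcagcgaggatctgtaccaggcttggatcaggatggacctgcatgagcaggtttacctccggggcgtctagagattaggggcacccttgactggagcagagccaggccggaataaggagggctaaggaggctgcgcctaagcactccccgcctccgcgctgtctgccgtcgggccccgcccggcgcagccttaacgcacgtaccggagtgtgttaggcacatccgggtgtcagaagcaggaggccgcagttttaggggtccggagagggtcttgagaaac
The letters were found 1 time in the window of Scd, 1 time in that of Igfbp5, 2 times in that of Wnt16 and not in that of Bdh1. Among the genes not shown, they were found 2 times in the window of Capn6. They were not found in those of Itm2a, Gstm5, Zfp385b, Ak4 and Cacna1e, and no promoter was listed for Zp2. A promoter was listed for 74 of the 101 rises and 57 of the 72 falls held in all 4 groups, and TGGAAA was in 20.3% of those rises and 14% of those falls, against 19.4% of the promoters of tested genes and 22.4% of all 27457 promoters listed. The ERR site AAGGTCA, bound by estrogen-related receptors such as Esrrg, was in 1.35% of those rises (1 of 74) and 5.26% of those falls (3 of 57), against 3.39% of tested genes. Those counts are too small to set rises against falls. These are matches of letters over short windows and not binding sites.

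Expression was measured as log2 signal, with a difference of 1 being a doubling, for 14456 genes. The 11 markers of skeletal muscle fibers that were measured had a mean level of 12.45 to 13.41 on transected arrays and 13.26 to 13.49 on Sham-SCI arrays, far above the array medians of 6.45 to 6.54, and arrays of the same group correlated at 0.973 to 0.993 across genes. The median replicate SD over all genes was alike in all groups, at 0.147 to 0.171 log2 units. Single genes differed from this. The SD was 2.36 on Sham-SCI arrays and 0.287 over all transected arrays for the fast myosin gene Myh1, and 1.32 and 0.535 for Gstm2. Array 1 of SCI-ES 1 day and array 2 of SCI stood apart in genes of denervated and stressed fibers, which are given with those genes. With only 3 Sham-SCI arrays, each of them carried much of every comparison.

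In the pooled comparison, the mean of the 4 transected group means against Sham-SCI, 136 genes were called higher (0.941% of genes tested) and 107 lower (0.74%), at a limma adjusted p under 0.05 and at least 1.5-fold. With each array centred on its median the split was 128 higher and 178 lower. Of the 243 genes, 173 differed from Sham-SCI by at least 1.5-fold in the called direction in every transected group. They comprised 101 rises (0.699% of genes tested) and 72 falls (0.498%), and are referred to as held. The largest held rises were those of Scd, Sfrp2, Sfrp4 and Postn, and the largest held falls those of Tecrl, Mettl21c, Lgi1 and Bdh1. The median held rise was 1.25 in SCI, 0.977 in SCI-ES 1 day, 1.24 in SCI-ES 3 days and 1.30 in SCI-ES 7 days on the log2 scale, and the median held fall was −1.22, −1.03, −1.15 and −1.26 in the same order. All 4 groups share the 3 Sham-SCI arrays, so the count of held genes is a description and not 4 independent results. Over all genes tested the median difference was −0.0205. In bulk muscle, fewer cells of a type and less RNA in each cell cannot be told apart.

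All 12 transected arrays lay above all 3 Sham-SCI arrays in 312 genes (2.16%) and below them in 310 (2.14%). Among held genes the arrays did not overlap in 86 of the 101 rises and 58 of the 72 falls. Held genes were chosen on these same arrays for a difference in every transected group, so this separation largely follows from the choice. Single arrays mattered: the pooled count of 243 was 21 without Sham-SCI replicate 3, 50 without replicate 1 and 130 without replicate 2. It was 146 without SCI-ES 7 days replicate 1, 156 without SCI replicate 3 and 434 without SCI-ES 7 days replicate 3. In all 15 fits that left out an array, 17 genes were called, 6 higher and 11 lower, and 14 of them were also held in all 15. Every other gene named as called lost its call in at least 1 of those fits. Of the 84 called genes that the rule for named genes picked out, 70 were not called without Sham-SCI replicate 3, 61 without replicate 1, 46 without replicate 2 and 30 without SCI-ES 7 days replicate 1.

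**Figure D1:**
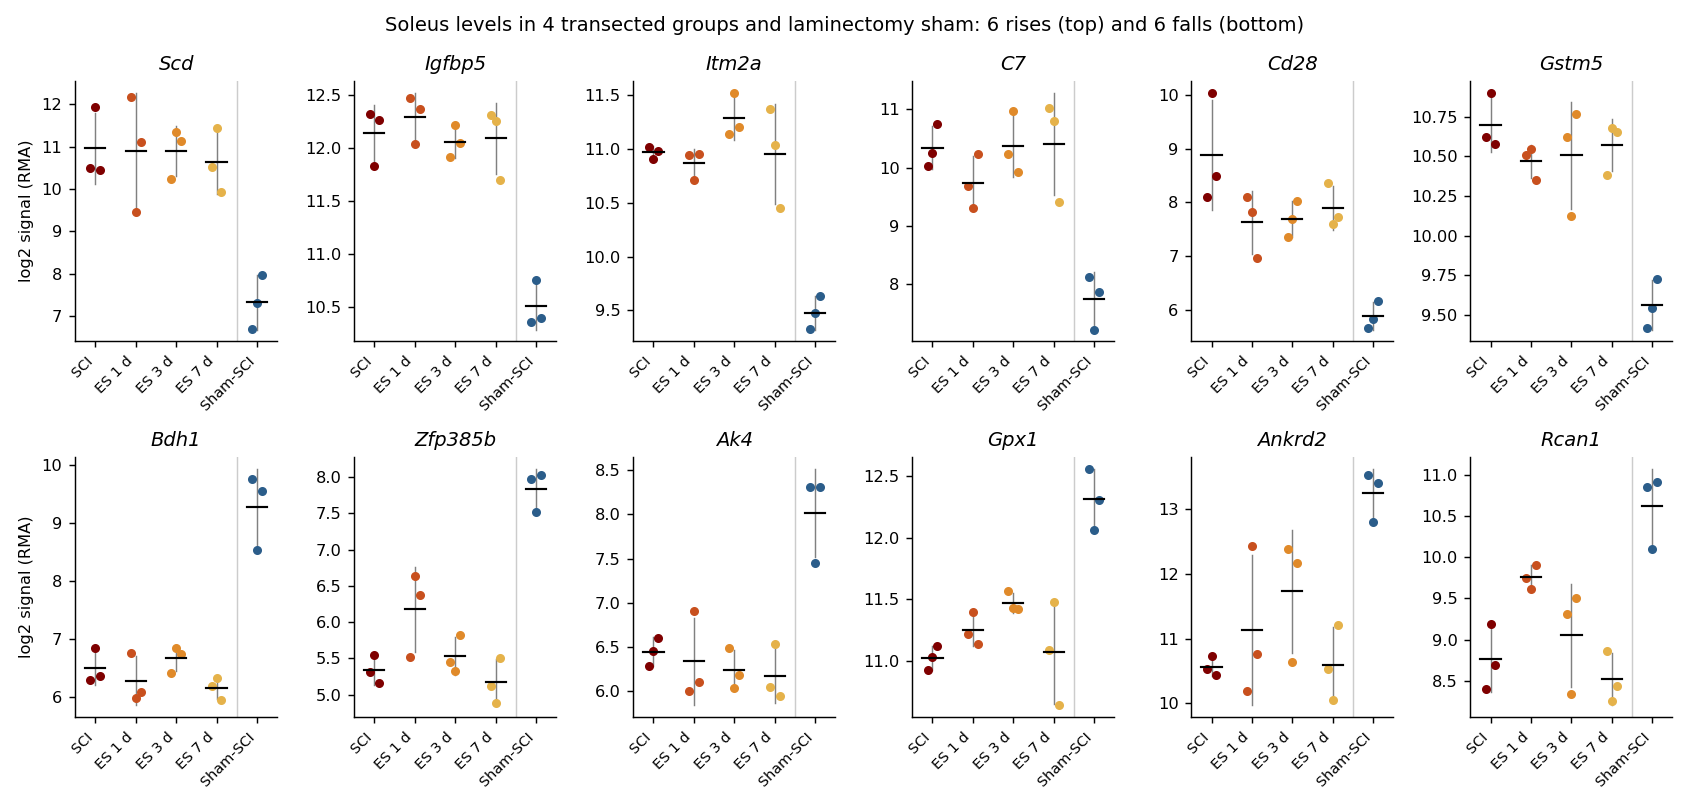
Log2 signal of 6 genes that were higher (top) and 6 that were lower (bottom) in transected soleus, by group on the x axis, where points are arrays, horizontal bars group means and vertical lines the SD (n = 3). In all 12 panels no transected array overlaps a Sham-SCI array, as for Scd, which is at 9.45 or more on transected arrays and at 7.97 or less on Sham-SCI arrays.

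Genes called in every single comparison numbered 5 higher (0.0346%), which were Scd, Igfbp5, Itm2a, Capn6 and Gstm5, and 6 lower (0.0415%), which were Bdh1, Zfp385b, Zp2, Ak4, Wnt16 and Cacna1e. Scd encodes the desaturase that makes monounsaturated fatty acids. In transected soleus Scd had a lowest value of 9.45, a median of 10.81 and a highest of 12.16, against 6.69, 7.31 and 7.97 in Sham-SCI. Every transected array was above every Sham-SCI array, by 3.53 log2 units on average (11.5-fold, SE 0.50, limma adjusted p = 0.0049). Igfbp5 encodes a secreted binding protein for insulin-like growth factors. The 12 transected arrays gave Igfbp5 values with a lowest of 11.70, a median of 12.23 and a highest of 12.47, and the Sham-SCI arrays gave 10.36, 10.76 and 10.40. The groups were separate, with a difference of 1.63 ± 0.15 (SE, adjusted p = 0.000223). Igfbp5 differed by 1.63 in SCI, 1.78 in SCI-ES 1 day, 1.55 in SCI-ES 3 days and 1.58 in SCI-ES 7 days. Itm2a, an integral membrane protein, was higher by 1.54 ± 0.15 (adjusted p = 0.000337), with no overlap between 10.45 to 11.52 on transected arrays and 9.32, 9.47 and 9.64 on Sham-SCI arrays. Capn6, a calpain family member that lacks protease activity, was higher by 1.39 ± 0.20 (adjusted p = 0.0052) and was not called without Sham-SCI replicate 3 (adjusted p = 0.0516). Gstm5, a mu-class glutathione S-transferase, was higher by 1.00 ± 0.13 (adjusted p = 0.00302), with 10.13 to 10.90 on transected arrays and 9.42, 9.55 and 9.73 on Sham-SCI arrays.

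Bdh1, the mitochondrial dehydrogenase that opens the use of the ketone body 3-hydroxybutyrate, had the smallest p of all genes. Values of Bdh1 had a lowest of 5.95, a median of 6.35 and a highest of 6.86 across transected arrays, against 9.77, 8.54 and 9.55 in Sham-SCI. The gap between the groups was wide, and the difference was −2.88 ± 0.23 (7.36-fold lower, adjusted p = 0.000125), with −2.78 in SCI, −3.0 in SCI-ES 1 day, −2.61 in SCI-ES 3 days and −3.13 in SCI-ES 7 days. Zfp385b, a zinc finger protein, was lower by a log2 difference of −2.29 ± 0.21 (adjusted p = 0.000223), and its fall was smallest in SCI-ES 1 day. Ak4, an adenylate kinase of the mitochondrial matrix, differed by −1.72 ± 0.21 (adjusted p = 0.00275), with 5.94 to 6.91 on transected arrays and 8.31, 7.45 and 8.31 on Sham-SCI arrays. Zp2, a protein of the egg coat, differed by −1.81 (adjusted p = 0.00307), and Cacna1e, a subunit of R-type calcium channels, by −0.71 (adjusted p = 0.00237). Cacna1e was dim, at 5.60 to 5.86 on transected arrays and 6.22, 6.53 and 6.56 on Sham-SCI arrays. The count of 11 moved with each array left out in turn, to between 2 (without SCI-ES 1 day replicate 3) and 20 (without SCI-ES 1 day replicate 2), and was 3, 4 or 18 without Sham-SCI replicate 3, 1 or 2. In the pooled comparison, apart from Capn6, these 11 genes were called in all 15 fits that left out an array. The 17 genes called in all of those fits further comprised Sh3rf2, a ubiquitin ligase (1.52), C7, a complement component (2.48), and the falls Mpp7, a membrane scaffold (−1.33), Gsta1 (−1.33) and Gpx1 (−1.11), which are glutathione enzymes, Amd1, which supplies the aminopropyl groups of polyamines (−0.75), and Inpp5a, which removes the calcium messenger inositol trisphosphate (−0.74).

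**Figure D2:**
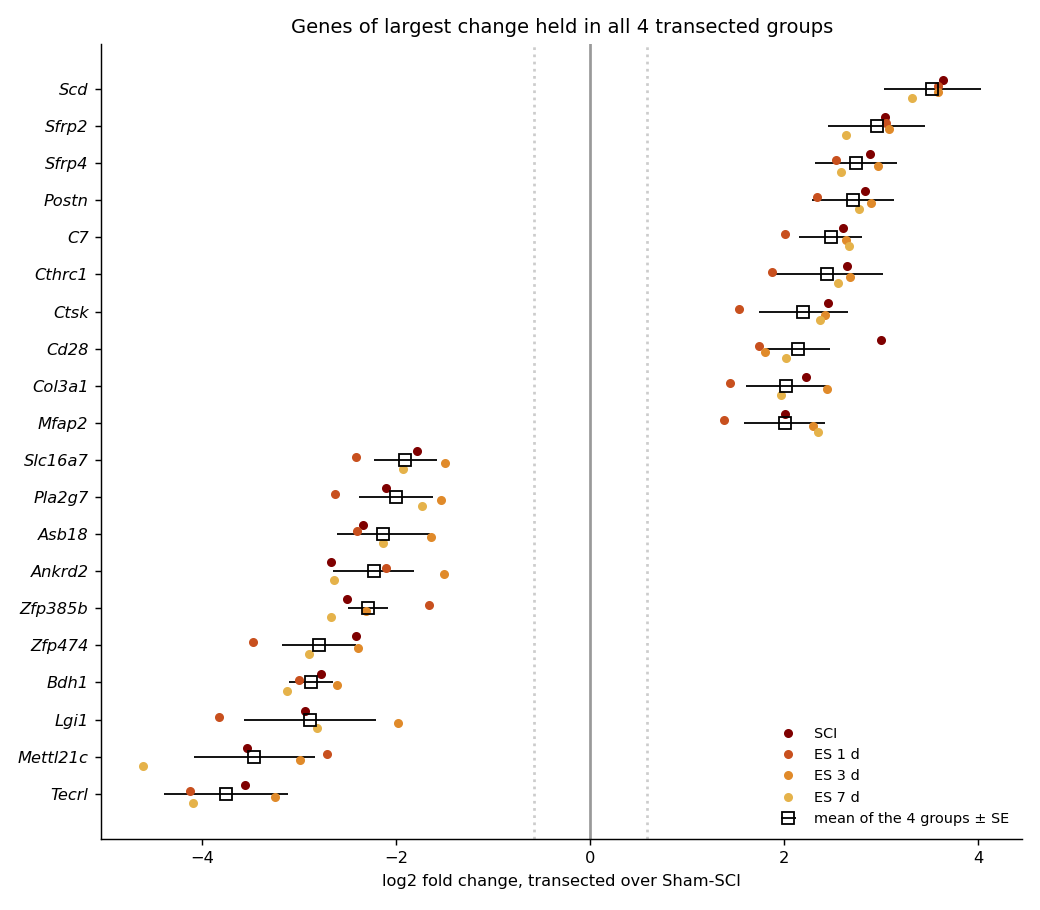
Log2 fold change against Sham-SCI of the 10 largest held rises and 10 largest held falls whose arrays did not overlap, where coloured points are the 4 transected groups, squares the mean of the groups with its SE, and dotted lines 1.5-fold. All points of a gene lie on 1 side of 0, as in Scd from 3.31 to 3.64, and they spread most in Mettl21c, from −4.61 in SCI-ES 7 days to −2.72 in SCI-ES 1 day.

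The largest falls included genes of the muscle fiber. Tecrl, an enoyl reductase-like protein of striated muscle that in humans is mutated in inherited arrhythmia, had the largest fall of all held genes. On arrays of transected rats Tecrl reached 4.39 at the lowest, 6.14 at the median and 8.05 at the highest, against 9.97, 9.26 and 10.54 in Sham-SCI soleus. The difference was −3.76 ± 0.64 (13.5-fold lower, adjusted p = 0.0118). Mettl21c, a lysine methyltransferase found in slow fibers of mice, came next. Mettl21c was at a lowest of 6.88, a median of 8.03 and a highest of 10.90 on the 12 transected arrays, against 11.97, 11.18 and 12.36 on the 3 Sham-SCI arrays. Its arrays were separate too, with a difference of −3.46 ± 0.62 (11-fold lower, adjusted p = 0.0152). Lgi1, a secreted protein linked to epilepsy in humans, was 7.43-fold lower (log2 difference −2.89 ± 0.68, adjusted p = 0.041) but was called in only 6 of the 15 fits that left out an array. Further large falls were in Zfp474 (−2.80), the SOCS-box protein gene Asb18 (−2.13), Pla2g7 (−2.01), which breaks down platelet-activating factor, and Slc16a7 (−1.91), a monocarboxylate carrier. Tecrl, Mettl21c and Slc16a7 were not called without Sham-SCI replicate 1 or without replicate 3, where adjusted p was 0.0651 and 0.105 for Tecrl. Asb18, called in 7 of the 15 fits, and Pla2g7 were lost without any 1 of the 3 Sham-SCI arrays. Zfp474 was lost without replicate 3 (adjusted p = 0.0516).

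Slow fiber genes leaned lower as a group and few passed the test. All 17 that were measured lay below Sham-SCI, with a median of −0.969 against −0.0205 over all genes, and 2 were called, Ankrd2 and Myh7b, both held. Ankrd2 is a stretch-responsive protein of slow sarcomeres. In transected soleus Ankrd2 had a lowest value of 10.05, a median of 10.68 and a highest of 12.43, against 13.52, 12.80 and 13.39 in Sham-SCI. The highest transected arrays were in SCI-ES 1 day and SCI-ES 3 days, and none reached a Sham-SCI array. The difference was −2.23 ± 0.42 (4.71-fold lower, adjusted p = 0.0173), with −2.67 in SCI, −2.11 in SCI-ES 1 day, −1.51 in SCI-ES 3 days and −2.64 in SCI-ES 7 days. Myh7b, an ancestral slow myosin, differed by −1.81 ± 0.33 (adjusted p = 0.0165), with 6.94 to 8.84 on transected arrays and 9.56, 8.87 and 9.64 on Sham-SCI arrays. Neither was called without Sham-SCI replicate 1 or 3 (adjusted p = 0.0845 and 0.123 for Ankrd2, 0.0801 and 0.129 for Myh7b). The slow myosin Myh7 was not called. The 12 transected arrays gave Myh7 values with a lowest of 11.27, a median of 12.64 and a highest of 13.56, and the Sham-SCI arrays gave 13.65, 13.30 and 13.63. Of the transected arrays 3 lay within the Sham-SCI range, and the difference was −0.97 ± 0.39 (adjusted p = 0.208). Mean slow fiber levels were 10.65 to 12.10 on transected arrays and 12 to 12.46 on Sham-SCI arrays, so the groups touched, and they were widest within SCI-ES 1 day (10.65 to 12.08) and SCI-ES 3 days (10.94 to 12.10).

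Fast fiber genes leaned the other way, with 13 of 14 above Sham-SCI and a median of 1.13, and none was called. Myh1 encodes the fast IIx myosin. Values of Myh1 had a lowest of 12.74, a median of 13.46 and a highest of 13.63 across transected arrays, against 8.80, 13.39 and 12.08 in Sham-SCI. Sham-SCI replicate 2 lay within the transected range and replicate 1 far below it. The difference was 1.94 ± 0.61 (adjusted p = 0.109), and among the fits that left out an array it passed only without Sham-SCI replicate 2 (2.92, adjusted p = 0.0259), against 0.63 (adjusted p = 0.296) without replicate 1. Myh2, the IIa myosin, showed the same order of arrays, at 12.42 to 13.20 in transected soleus and 10.62, 12.75 and 12.26 in Sham-SCI, and Myh4, the IIb myosin, differed by −0.04 ± 0.71 (adjusted p = 0.987), with 8.83 to 13.10 in transected soleus and 9.17, 12.85 and 10.99 in Sham-SCI. Mean fast fiber levels were 12.10 to 13.07 on transected arrays against 9.992, 12.89 and 11.67 on Sham-SCI arrays 1 to 3. They were 8.787 to 9.919 on Sham-GA arrays and 8.06 to 10.06 on GA arrays, so Sham-SCI arrays 2 and 3 lay above all of those. Against Sham-GA the difference was 5.03 for Myh1, 3.55 for Myh2 and 3.99 for Myh4 (limma adjusted p = 4.8e-08, 5.7e-06 and 3.4e-07). The size and the calls of fast fiber differences therefore depended on the control, and why the controls differ was not tested.

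**Figure D3:**
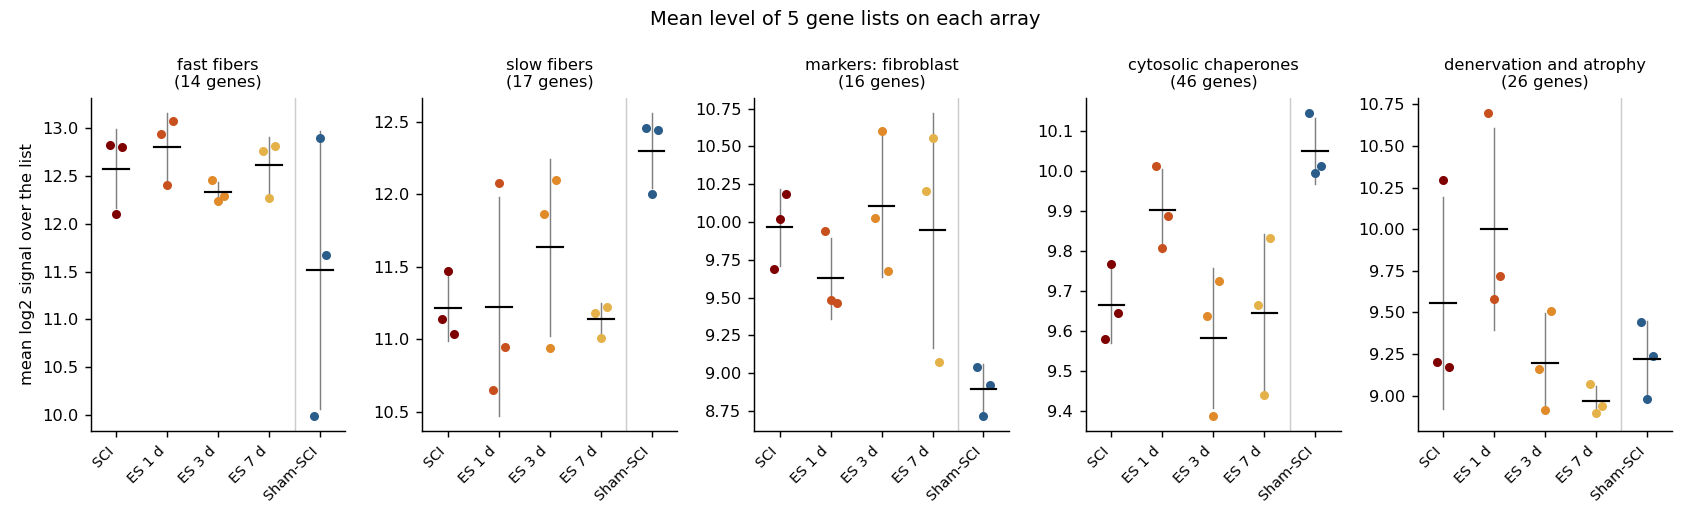
Mean log2 signal of 5 gene lists on each array, by group, where points are arrays, horizontal bars group means and vertical lines the SD (n = 3). Fast fiber genes span 9.992 to 12.89 on the Sham-SCI arrays, fibroblast markers are at 9.072 or more on transected arrays and at 9.044 or less on Sham-SCI arrays, and the denervation list is highest on an array of SCI-ES 1 day.

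Of 16 genes of the calcineurin and NFAT pathway, 2 fell and both were feedback regulators of calcineurin, Rcan1 and Rcan2. On arrays of transected rats Rcan1 reached 8.26 at the lowest, 9.03 at the median and 9.91 at the highest, against 10.85, 10.09 and 10.91 in Sham-SCI soleus. No array overlapped, and the difference was −1.60 ± 0.24 (3.02-fold lower, adjusted p = 0.00661), with −1.86 in SCI, −0.86 in SCI-ES 1 day, −1.56 in SCI-ES 3 days and −2.10 in SCI-ES 7 days. Rcan2 was at a lowest of 9.77, a median of 10.25 and a highest of 10.63 on the 12 transected arrays, against 11.46, 11.08 and 11.41 on the 3 Sham-SCI arrays. No array overlapped here either (−1.06 ± 0.15, adjusted p = 0.00483). The catalytic subunit Ppp3ca, with the largest positive difference of the list, differed by 0.31 ± 0.15 (adjusted p = 0.311), and the median of the list was 0.0417. Rcan1 was not called without Sham-SCI replicate 1 or 3 (adjusted p = 0.0514 and 0.0694), nor Rcan2 without replicate 3 (adjusted p = 0.0516).

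Calcium handling genes gave 2 falls among 24 measured. Rrad, a small GTPase that restrains voltage-gated calcium channels, was 6.01-fold lower (−2.59 ± 0.37, adjusted p = 0.0052), with −2.53 in SCI, −1.36 in SCI-ES 1 day, −2.77 in SCI-ES 3 days and −3.69 in SCI-ES 7 days. Its arrays were at 5.33 to 8.82 in transected soleus and 10.00, 8.65 and 9.36 in Sham-SCI and overlapped at the edge. Ryr3, a calcium release channel, differed by −1.25 ± 0.23 (adjusted p = 0.0163). Casq2, the slow calsequestrin that stores calcium, did not pass, with −1.43 ± 0.35 (adjusted p = 0.0521), and neither did the fast calcium pump Atp2a1 (0.68 ± 0.22, adjusted p = 0.117). Homer2, a scaffold at calcium channels that was chosen after its values were seen, was lower by a log2 difference of −1.56 ± 0.24 (adjusted p = 0.00691). The potassium channel Kcnj11, which closes when ATP is high, was the only called member of 21 potassium and sodium channels (−0.78 ± 0.15, adjusted p = 0.0208).

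Among genes of energy metabolism few were called. Of 5 ketone body genes, whose median was −0.467, 3 had all transected arrays below Sham-SCI, where 2.14% of all genes tested did. This list and the others were chosen with earlier results of these data known, so such shares are descriptions and not tests. Bdh1 fell as above and Bdh2, a cytosolic dehydrogenase, rose by 0.80 ± 0.18 (adjusted p = 0.0341) and was not held. Of 68 oxidative phosphorylation genes 62 were below Sham-SCI, with a median of only −0.139 against −0.0205 over all genes, and none was called. Olfactory receptors, which muscle should lack, leaned nearly as much, with 41 of 51 below Sham-SCI and a median of −0.118. The oxidative phosphorylation median was 0.188 against Sham-GA and 0.498 against GA, so its sign depended on the control. In the PGC-1 network, which drives mitochondrial genes, 17 of 19 were below Sham-SCI with a median of −0.314, and Esrrg, the estrogen-related receptor gamma, was the only one called. In 5 of the 19 all transected arrays were below Sham-SCI, against 2.14% of all genes tested. Among them was Perm1, a regulator of mitochondrial genes in muscle, at 5.77 to 9.14 against 9.70, 10.14 and 9.95 (−1.54 ± 0.57, adjusted p = 0.167). In transected soleus Esrrg had a lowest value of 7.66, a median of 8.34 and a highest of 9.08, against 9.96, 9.60 and 10.03 in Sham-SCI. The arrays did not overlap, the difference was −1.46 ± 0.28 (2.75-fold lower, adjusted p = 0.0196), and it was close to equal in all groups, at −1.46 in SCI, −1.50 in SCI-ES 1 day, −1.33 in SCI-ES 3 days and −1.53 in SCI-ES 7 days. Without Sham-SCI replicate 1 or 3 it was not called (adjusted p = 0.0863 and 0.137). The coactivators Ppargc1a (−0.03 ± 0.28) and Ppargc1b (−0.29 ± 0.25) were not called (adjusted p = 0.973 and 0.596).

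Both enzymes called among 26 genes of pyruvate dehydrogenase and the citric acid cycle act on the dehydrogenase itself, the kinase Pdk1 (−0.93 ± 0.23, adjusted p = 0.0494) and the phosphatase Pdp2 (−0.60 ± 0.12, adjusted p = 0.0258), and both were lower. Of 31 fatty acid uptake and oxidation genes 27 were below Sham-SCI (median −0.333), none of them called, while Ucp3, a mitochondrial carrier, was higher (0.91 ± 0.22, adjusted p = 0.0488). Scd was the only called gene of 23 in fatty acid and triglyceride synthesis, whose median was 0.0356. Gbe1, the glycogen branching enzyme, was the only called gene of 31 in glycolysis and glycogen (−0.76 ± 0.18, adjusted p = 0.0421). Pdk1, Ucp3 and Gbe1 were called in 4, 4 and 5 of the 15 fits that left out an array.

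**Figure D4:**
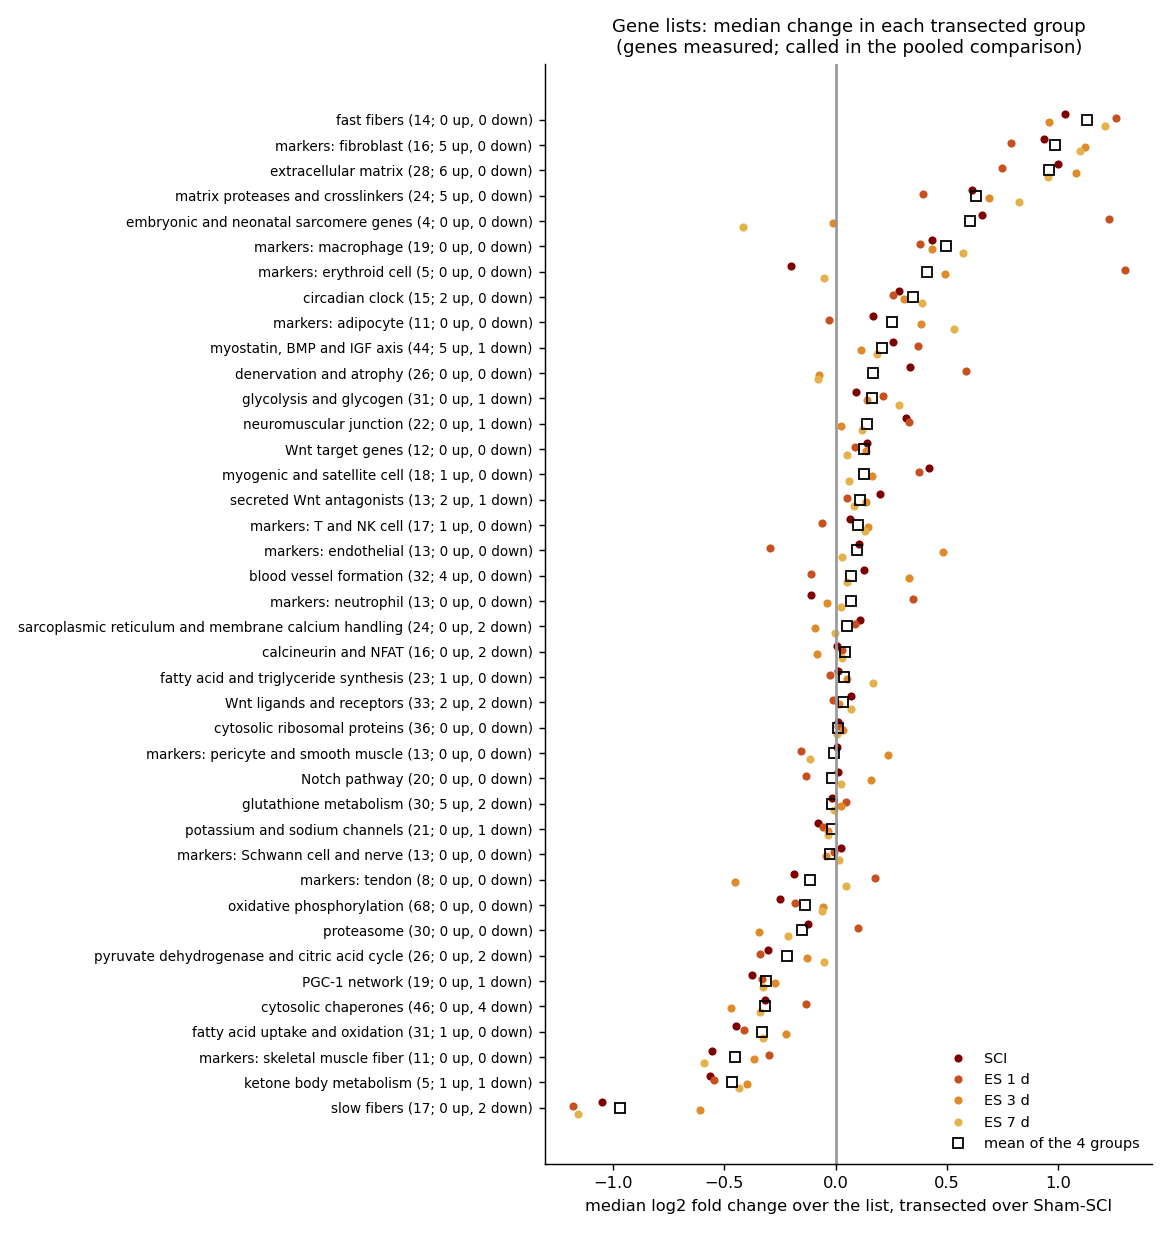
Median log2 fold change of each gene list in the 4 transected groups (points) and in their mean (squares), with the number of genes measured and of genes called higher and lower in the pooled comparison beside each name. Fast fiber and fibroblast lists lie furthest to the right, at 1.13 and 0.988, and slow fibers furthest to the left, at −0.969.

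Matrix genes were among the larger rises. Of 28 extracellular matrix genes 25 were above Sham-SCI with a median of 0.958, 6 were called and all 6 were held, and of 24 matrix proteases and crosslinkers 5 were called and held. Over all genes tested 0.941% were called higher, 0.74% were called lower and 0.699% were held rises. Those shares are the background for these counts and for the counts of the lists that follow. Postn encodes periostin, a matricellular protein of remodelling tissue. The 12 transected arrays gave Postn values with a lowest of 9.40, a median of 10.84 and a highest of 12, and the Sham-SCI arrays gave 7.66, 8.54 and 8.56. Every transected array was above Sham-SCI, by 2.71 ± 0.43 (6.53-fold, adjusted p = 0.00818). Col3a1, a fibrillar collagen, was higher by 2.02 ± 0.42 (adjusted p = 0.0258), with transected arrays from 9.24 to 12.01 and Sham-SCI at 9.22, 8.58 and 8.64, so that the lowest transected array, in SCI-ES 7 days, nearly met Sham-SCI. Col1a1 (1.90), the proteoglycan Bgn (1.53) and Mfap2, a part of elastic microfibrils (2.00), were also called. Among enzymes that cut matrix, Ctsk, cathepsin K, was 4.57-fold higher (2.19 ± 0.46, adjusted p = 0.0268), the membrane-bound metalloprotease Mmp14 3.73-fold (1.90 ± 0.35, adjusted p = 0.0163) and the gelatinase Mmp2 2.89-fold (1.53 ± 0.28, adjusted p = 0.0165). Adamts2 and Bmp1, which trim procollagens, were higher by 1.31 and 1.07 (adjusted p = 0.0345 and 0.0326). Cthrc1, a secreted protein of collagen-producing cells, was 5.41-fold higher and was called in 5 of the 15 fits that left out an array. Col3a1, Ctsk, Mmp14 and Mmp2 were lost without any 1 of the 3 Sham-SCI arrays, and Postn without replicate 1 or 3 (adjusted p = 0.0626 and 0.056).

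Fibroblast markers leaned the same way as these genes. The lists share members, among them Col1a1 and Col3a1, so this is partly the same genes counted again. Of 16 measured, 15 were above Sham-SCI (median 0.988) and 5 were called, Col1a1, Col3a1, Dpt (0.97), Fap (1.44) and Pdgfrb (0.88). Their mean level was 9.072 to 10.60 on transected arrays and 8.717 to 9.044 on Sham-SCI arrays, their summed signal 18430 to 48140 and 13960 to 17120, and none was at 0. The defining fibroblast markers Pdgfra (0.91, adjusted p = 0.0995) and Dcn (0.45, adjusted p = 0.0529) did not pass. The part of fibroblast number in the matrix rises was not tested. Macrophage markers had a median of 0.494 and none of 19 was called, endothelial markers 0.0945 and none of 13, and adipocyte markers 0.254 and none of 11.

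The secreted Wnt antagonists Sfrp2 and Sfrp4, which bind Wnt proteins outside the cell, were the second and the third largest of the held rises. Values of Sfrp2 had a lowest of 8.27, a median of 9.67 and a highest of 10.71 across transected arrays, against 7.85, 6.16 and 6.03 in Sham-SCI. Every transected array was above Sham-SCI, the lowest by less than the spread among the Sham-SCI arrays, and the difference was 2.95 ± 0.50 (7.74-fold, adjusted p = 0.0117), with 3.04 in SCI, 3.05 in SCI-ES 1 day, 3.08 in SCI-ES 3 days and 2.63 in SCI-ES 7 days. On arrays of transected rats Sfrp4 reached 10.17 at the lowest, 11.80 at the median and 12.38 at the highest, against 9.51, 8.09 and 8.98 in Sham-SCI soleus. The groups were again separate (2.74 ± 0.42, 6.69-fold, adjusted p = 0.00756). Of the other 11 antagonists 1 was called, Dkk2, which blocks the Wnt coreceptor and was lower (−1.57 ± 0.33, adjusted p = 0.0287). The median of the 13 was 0.108. Without Sham-SCI replicate 2 or 3 Sfrp2 was not called (adjusted p = 0.0556 and 0.105), nor was Sfrp4 without replicate 3 (adjusted p = 0.0629).

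Wnt ligands and receptors gave 2 rises and 2 falls among 33. Wnt16 was at a lowest of 5.30, a median of 5.67 and a highest of 5.91 on the 12 transected arrays, against 6.51, 6.87 and 6.73 on the 3 Sham-SCI arrays. Wnt16, a ligand, was dim in every array but separate between the groups (−1.04 ± 0.12, 2.05-fold lower, adjusted p = 0.00237), at −0.94 in SCI, −1.05 in SCI-ES 1 day, −1.10 in SCI-ES 3 days and −1.07 in SCI-ES 7 days. The receptor Fzd9 was lower (−0.98 ± 0.22, adjusted p = 0.0373), and the cell surface proteoglycan Gpc3 (1.48 ± 0.32, adjusted p = 0.0295) and the receptor kinase Ror1 (0.62 ± 0.12, adjusted p = 0.0175) were higher. None of 12 Wnt target genes was called, with a median of 0.128. Axin2, which Wnt signaling induces in many tissues, had the largest difference among them (0.45 ± 0.11, adjusted p = 0.0577), at 0.63 in SCI, 0.08 in SCI-ES 1 day, 0.39 in SCI-ES 3 days and 0.69 in SCI-ES 7 days.

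In the myostatin, BMP and insulin-like growth factor axis 35 of 44 genes were above Sham-SCI (median 0.209), 5 rose and 1 fell. Besides Igfbp5 and Bmp1, the rises were the binding protein Igfbp6 (1.13 ± 0.27, adjusted p = 0.0472), Igfbp7 (0.81, adjusted p = 0.0277) and the BMP antagonist Chrdl1 (1.39 ± 0.32, adjusted p = 0.0405). Inhba, the activin A subunit, was lower (−0.72 ± 0.15, adjusted p = 0.0267). Myostatin itself, Mstn, differed by 0.16 (adjusted p = 0.903). Igfbp6 and Chrdl1 were called in 3 and 5 of the 15 fits that left out an array.

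Glutathione metabolism had 7 called genes among 30 in both directions, with a median of −0.0176. The antioxidant enzyme Gpx1 was lower. In transected soleus Gpx1 had a lowest value of 10.64, a median of 11.18 and a highest of 11.57, against 12.56, 12.06 and 12.31 in Sham-SCI. The arrays did not overlap (−1.11 ± 0.14, 2.16-fold lower, adjusted p = 0.00307). Gsta1, an alpha-class transferase, was 2.51-fold lower (−1.33 ± 0.15, adjusted p = 0.00237), and the secreted peroxidase Gpx3 was higher (0.86 ± 0.20, adjusted p = 0.0376). Of the mu-class transferases Gstm1, Gstm2, Gstm4 and Gstm5 were all higher, by 0.98, 1.85, 0.95 and 1.00. Gstm2, at 7.85, 10.45 and 8.74 on Sham-SCI arrays, and Gstm5, at 9.42, 9.55 and 9.73, differed in their order of arrays. The mu-class genes are close paralogs, and whether their probes share signal was not tested, so the call of each is uncertain.

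Blood vessel genes gave 4 rises among 32 (median 0.0701). Vash2, a vasohibin of growing vessels, was 2.94-fold higher (1.56 ± 0.23, adjusted p = 0.00661), with 2.15 in SCI, 1.36 in SCI-ES 1 day, 1.32 in SCI-ES 3 days and 1.39 in SCI-ES 7 days, and the angiotensin receptor Agtr1a was higher by 1.24 ± 0.28 (adjusted p = 0.0348). The other members called were Angptl2 (0.73) and Fgfr1 (0.62), neither of them held. Esm1, a proteoglycan secreted by endothelial cells, was 3.34-fold lower (−1.74 ± 0.36, adjusted p = 0.0254).

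Cd28, the costimulatory receptor of T cells, was the 1 called gene of 17 T and NK cell markers. The 12 transected arrays gave Cd28 values with a lowest of 6.97, a median of 7.92 and a highest of 10.04, and the Sham-SCI arrays gave 5.66, 5.83 and 6.16. The difference was 2.14 ± 0.33 (4.4-fold, adjusted p = 0.00789), with 2.99 in SCI, 1.74 in SCI-ES 1 day, 1.80 in SCI-ES 3 days and 2.01 in SCI-ES 7 days. It was not called without Sham-SCI replicate 1 or 3 (adjusted p = 0.0562 and 0.0516). Defining T cell markers did not pass the test: Cd3e was at 5.15 to 5.92 on transected arrays and 5.32 to 5.42 on Sham-SCI arrays (adjusted p = 0.273) and Lck differed by 0.01 (adjusted p = 0.989). The summed signal of the 17 markers was 1717 to 3526 on transected arrays and 1210 to 1979 on Sham-SCI arrays, and none was at 0. Complement genes were chosen after their values were seen. C7, of the membrane attack complex, was 5.57-fold higher (2.48 ± 0.32, adjusted p = 0.00308), C1s and C1r, the proteases that start the classical pathway, were higher by 1.65 and 1.01 (adjusted p = 0.0351 and 0.0401), and Cfi, a complement inhibitor, was lower (−1.21, adjusted p = 0.0287).

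A further pair chosen after its values were seen makes polyamines, Odc1 (−1.09, adjusted p = 0.0052) and Amd1 (−0.75, adjusted p = 0.00691), and both were held falls. Amd1 was at 7.47 to 8.11 on transected arrays and 8.36 to 8.78 on Sham-SCI arrays.

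Of the 243 called genes 70 were not held. They fell under 1.5-fold most often in SCI-ES 1 day, in 51 genes, against 14 in SCI-ES 3 days, 9 in SCI and 9 in SCI-ES 7 days, and a gene can fall under it in more than 1 group. Cytosolic chaperones, which fold proteins and hold the sarcomere under load, were such a list. Of 46 measured 45 lay below Sham-SCI, with a median of −0.316 in SCI, −0.135 in SCI-ES 1 day, −0.47 in SCI-ES 3 days and −0.34 in SCI-ES 7 days, and 4 fell, none of them held. Hspb7, a small heat shock protein of the sarcomere, differed by −1.01 ± 0.23 (adjusted p = 0.036), at −1.35 in SCI, −0.43 in SCI-ES 1 day, −0.91 in SCI-ES 3 days and −1.36 in SCI-ES 7 days. Bag3, which clears damaged filament proteins, was called too (−0.62 ± 0.12, adjusted p = 0.0211), with −0.87 in SCI, −0.13 in SCI-ES 1 day, −0.64 in SCI-ES 3 days and −0.82 in SCI-ES 7 days. Hspb2 and Dnajb4 were lower by smaller amounts (−0.74 and −0.63). Difference among the 4 groups was not past the adjusted threshold for any of them, so that SCI-ES 1 day is not shown to differ.

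Other genes not held were Mllt11 (−1.37 ± 0.25, adjusted p = 0.0168), at −1.72 in SCI, −0.49 in SCI-ES 1 day, −1.64 in SCI-ES 3 days and −1.62 in SCI-ES 7 days, Mapt, the microtubule protein tau (−0.92 ± 0.21, adjusted p = 0.0345), and the rises Tmod1, which caps actin filaments (0.93 ± 0.20, adjusted p = 0.0278), and Phlda3, a target of p53 (0.97 ± 0.22, adjusted p = 0.0374). The clock genes Per1 (0.64 ± 0.12, adjusted p = 0.0165) and Per3 (0.68 ± 0.12, adjusted p = 0.0158), which repress their own transcription in a daily cycle, were higher and fell short of 1.5-fold in SCI alone, at 0.49 and 0.53. They were the 2 called genes of 15 in the circadian clock list. The hour at which muscle was taken is not given in the sources used here.

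No gene of the denervation and atrophy list (26 measured) was called, and its levels varied widely between arrays. Its mean level was 8.895 to 10.70 on transected arrays and 8.98 to 9.441 on Sham-SCI arrays, with the 2 highest arrays being SCI-ES 1 day replicate 1 (10.70) and SCI replicate 2 (10.29). Cdkn1a, the growth arrest gene p21, reached 8.21 to 12.56 on transected arrays, against 9.16, 8.29 and 8.42 on Sham-SCI arrays, and the ubiquitin ligases of atrophy Fbxo32 (−0.06, adjusted p = 0.884) and Trim63 (0.15, adjusted p = 0.734) were near Sham-SCI. Without SCI-ES 1 day replicate 1 the pooled count was 250 and the held count 167, and without SCI replicate 2 they were 204 and 140. At the neuromuscular junction Colq, the collagen tail that anchors acetylcholinesterase, was the 1 called gene of 22 (−1.70 ± 0.35, 3.25-fold lower, adjusted p = 0.0252), and it was held. Cntfr, the receptor of ciliary neurotrophic factor, was 3.37-fold higher (1.75 ± 0.31, adjusted p = 0.0133), with 2.18 in SCI, 1.78 in SCI-ES 1 day, 0.81 in SCI-ES 3 days and 2.25 in SCI-ES 7 days. Colq and Cntfr were not called without Sham-SCI replicate 1 or 3 (adjusted p = 0.115 and 0.172 for Colq, 0.0724 and 0.105 for Cntfr).

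Whether the 4 transected groups differed among themselves was tested with limma's F test, which uses the Sham-SCI arrays only for the spread. No gene passed (lowest adjusted p = 0.527), and 1159 genes, 8.02%, had an unadjusted p under 0.05. Of the held genes 10 did (5.78%), with the lowest p in Rrad, whose differences from Sham-SCI were −2.53 in SCI, −1.36 in SCI-ES 1 day, −2.77 in SCI-ES 3 days and −3.69 in SCI-ES 7 days. ES as a whole, the mean of the 3 stimulated groups minus SCI, changed no gene past the threshold either, with 304 genes at an unadjusted p under 0.05. Over the 173 held genes this difference had a median size of 0.119, with a median 95% interval of ± 0.515, and the interval lay on 1 side of 0 in 4 of them, Cd28, Diaph1, Gsta1 and Vash2. For Cd28 it was −1.14 (−1.88 to −0.40), for Vash2 −0.79 (−1.31 to −0.27) and for Gsta1 −0.57 (−0.91 to −0.22), without adjustment for the number of genes. SCI replicate 2, which stood apart in other genes, was the highest transected array for each of these. SCI replicates 1 to 3 were at 8.10, 10.04 and 8.48 for Cd28, where ES arrays reached 8.36. They were at 8.69, 10.00 and 8.85 for Vash2 (ES up to 8.87) and 9.64, 10.45 and 9.67 for Gsta1 (ES up to 9.95). Whether the intervals hold without that array was not tested. For Bdh1 it was −0.14 (−0.65 to 0.37) and for Igfbp5 0.01 (−0.32 to 0.34), so that a difference between ES and SCI of 1.5-fold (0.585) lies outside the interval for Igfbp5. For Scd, at −0.15 (−1.25 to 0.96), a 2-fold lower level under ES lies within it.

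The fall of Bdh1 and the rise of Igfbp5 were also seen against intact soleus of the other experiment, while levels of Postn in that experiment varied with the day after operation and overlapped with the transected arrays. On the 9 Sham-GA arrays Bdh1 ranged over 8.52 to 10.29 and on the 9 GA arrays over 8.23 to 10.07, all above the highest transected array at 6.86. Igfbp5 was at 10.09 to 11.43 on Sham-GA and 9.63 to 11.02 on GA arrays, all below the lowest transected array at 11.70. Postn, in contrast, was at 8.58 to 12.91 on Sham-GA and 8.89 to 13.02 on GA arrays, which span the whole transected range. By day, Sham-GA arrays were at 9.04 to 10.37 at 1 day, 8.58 to 10.73 at 3 days and 11.84 to 12.91 at 7 days, and GA arrays at 8.89 to 9.81, 10.49 to 11.66 and 12.54 to 13.02, against 7.66 to 8.56 in Sham-SCI. The pooled Sham-GA and GA ranges of Postn therefore mix days with low and high levels. Those rats differ from the transected ones in age, operation and experiment, which cannot be told apart here.

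Over the 101 held rises the median difference was 1.2 against Sham-SCI, 0.421 against Sham-GA and 0.273 against GA, and over the 72 held falls it was −1.18, −0.916 and −0.525 in the same order. With Sham-GA in place of Sham-SCI as the control, 30 of the 101 held rises (29.7%) were called higher, where 2.15% of all genes were, and 48 of the 72 held falls (66.7%) were called lower, where 2.65% of all genes were. Both comparisons use the same 12 transected arrays. By list, the median of extracellular matrix genes was 0.958 against Sham-SCI and 0.00619 against Sham-GA, and that of fibroblast markers 0.988 and 0.0238. The level of these lists on intact arrays also depended on the day. Mean matrix levels were 9.146 to 10.701 on transected arrays, against 9.445 to 9.745 on Sham-GA arrays at 1 day, 9.288 to 10.528 at 3 days and 10.666 to 11.298 at 7 days, and 9.007 to 9.259 in Sham-SCI. Mean fibroblast marker levels were 9.072 to 10.605 on transected arrays, against 9.074 to 9.322, 8.972 to 10.347 and 10.537 to 11.059 on the same Sham-GA arrays. With the days taken apart, a split added after the data were seen, the median held rise was 0.93 against Sham-GA 1 day, 0.719 against 3 days and −0.367 against 7 days, and the median held fall was −0.753, −1.14 and −0.854. Against GA the median held rise was 1.21, 0.275 and −0.521 at 1, 3 and 7 days and the median held fall −0.487, −0.592 and −0.564. These medians are descriptions with no test. Slow fiber genes differed by −0.969 and −0.882, and fast fiber genes by 1.13 and 3.23. Macrophage markers had a median of 0.494 against Sham-SCI and −0.626 against Sham-GA. Medians of the energy lists shrank or changed sign. Against Sham-SCI, Sham-GA and GA they were −0.218, 0.21 and 0.594 for pyruvate dehydrogenase and the citric acid cycle. In the same order they were −0.314, −0.0441 and 0.2 for the PGC-1 network, and −0.333, −0.0468 and 0.521 for fatty acid uptake and oxidation.

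All 12 transected arrays lay above all 18 further intact arrays in 45 genes (0.311%) and below them in 32 (0.221%). Of the held genes, 3 rises and 6 falls were apart from all 21 intact arrays, the rises being Cd28, Igfbp5 and Zcchc24 and the falls Ak4, Ankrd2, Bdh1, Gpx1, Homer2 and Zfp385b. Ankrd2 was at 13.03 to 13.82 on Sham-GA and 13.18 to 13.94 on GA arrays, and Gpx1 at 12.07 to 12.56 and 12.11 to 12.54, against highest transected values of 12.43 and 11.57. Cd28 was at 5.75 to 6.24 on Sham-GA and 5.52 to 6.39 on GA arrays, against a lowest transected value of 6.97. Rcan1 was below all GA arrays (10.54 to 11.83) and overlapped with Sham-GA (9.63 to 11.34). Wnt16, at 5.54 to 6.95 on Sham-GA and 5.53 to 5.95 on GA arrays, overlapped with the transected arrays in both, and Scd, at 6.25 to 9.87 and 6.83 to 9.17, overlapped with them on Sham-GA arrays only.

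**Figure D5:**
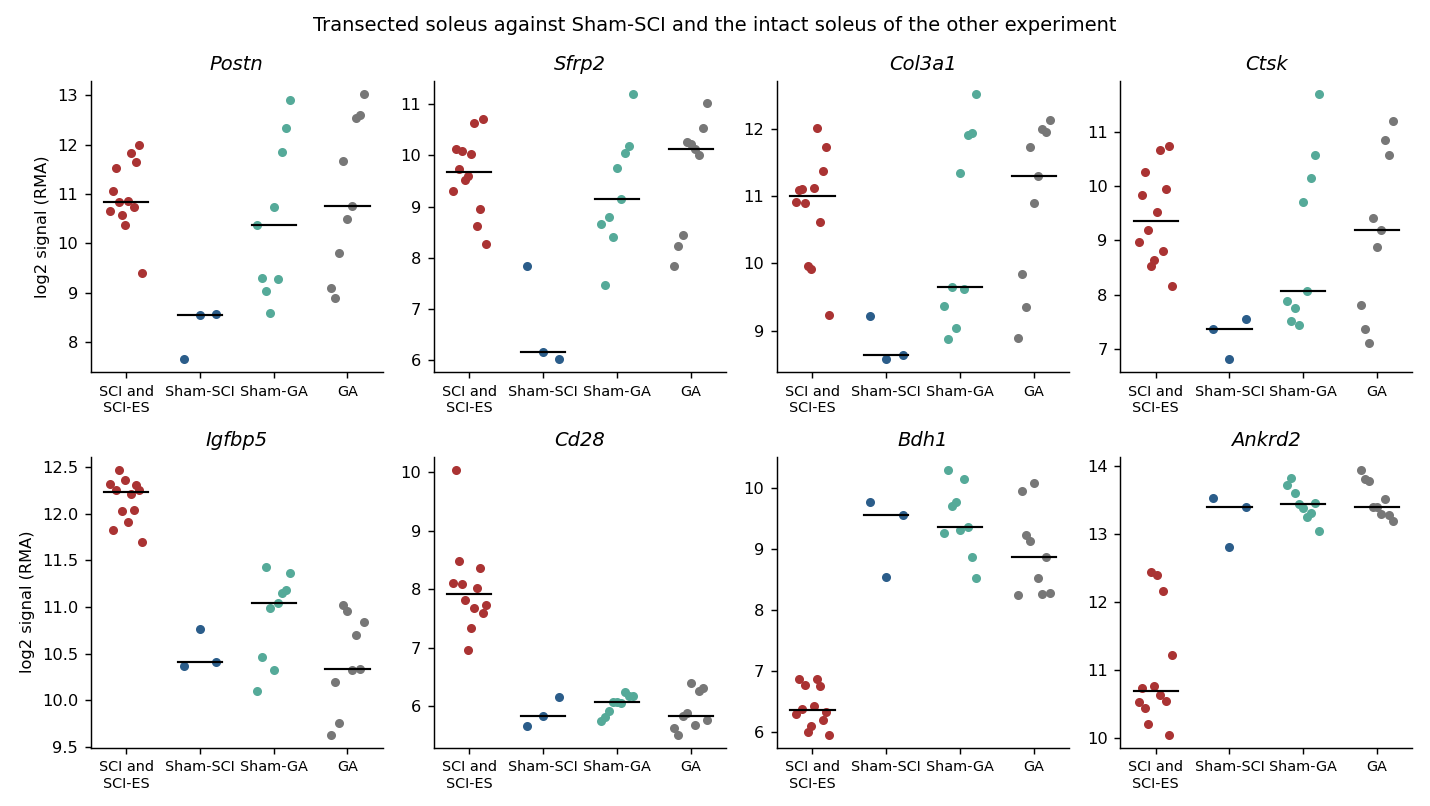
Log2 signal of 4 matrix and Wnt antagonist genes (top) and 4 genes apart from all intact arrays (bottom) in the 12 transected arrays, 3 Sham-SCI, 9 Sham-GA and 9 GA arrays, where points are arrays and bars medians. Postn, Sfrp2, Col3a1 and Ctsk on Sham-GA and GA arrays pooled over their 3 days overlap with the transected arrays, whereas Igfbp5, Cd28, Bdh1 and Ankrd2 do not.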

How the data were processed

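RNA of soleus from 33 rats was hybridized to Affymetrix rat arrays, 1 array for each animal. Per the labels and the study's methods, the deposited log2 values were made by the authors with robust multi-array averaging in the oligo package (baseline subtraction, quantile normalization and median polish of transcript values), and the version is not given in the sources used here. The number of arrays, not a read depth, limits the precision. The table holds 29214 rows, of which 15310 carry 1 gene symbol, 323 several and 13581 none, and 15279 of those with 1 symbol matched RefSeq by gene ID. Rows with 1 symbol were kept, with the row of highest mean for the 527 genes with several rows, and a mean log2 value of at least 3, which left 14456 genes.

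Group means of the 15 spinal surgery arrays were modelled in R 4.3.3 by limma 3.58.1 (lmFit, contrasts, eBayes) with Benjamini-Hochberg adjustment over all genes, where a call needs an adjusted p under 0.05 and at least 1.5-fold. A pooled difference is the mean of the 4 transected group means minus Sham-SCI, and its test is two-sided. The spread is that between animals. In simulated data with 50 changed genes at each size among 14456, the pooled comparison recovered 34% of 1.5-fold, 90% of 2-fold and 96% of 3-fold changes, and the test among the 4 transected groups, with 1 group shifted, recovered 20%, 68% and 92%. These shares do not carry over to measured genes with a wide spread. Myh1 at 3.84-fold and Dclk1 at 4.03-fold were not called (limma adjusted p = 0.109 and 0.0763). A gene that was not called is therefore not shown to be unchanged.

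Named genes were up to 10 held rises and 10 held falls of largest size with no overlap of arrays, genes the study names, the ends and up to 4 called members of each gene list, 6 called genes with the smallest and 6 held genes with the largest p among transected groups, and 4 rises and 4 falls of largest size not held. Members and lists were chosen with earlier results of these data known. Replicate numbers of the labels were checked for pairing: of 30 same-numbered pairs 9 had a correlation of deviations over 0.1, with a median of −0.0473, so the numbers were taken as names only. No date or batch is given in the labels. The alternatives were other filters, scalings, priors, array weights, fold minimums, rules for several rows, the methods' one-way test, each array or group left out, and other controls. Promoter letters were searched in Python 3.11.15, and figures were drawn with matplotlib 3.10.9.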

Additional observations from a re-analysis of the deposited data

Results flagged for a closer look

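Chrna1 and Chrnd, subunit genes of the muscle acetylcholine receptor, moved in opposite directions in single transected groups, which is why they are listed. Chrng, the gamma subunit, overlapped with Sham-SCI in both of these groups. It was at 10.92, 7.56 and 7.94 in SCI-ES 1 day and 7.02, 6.73 and 6.44 in SCI-ES 7 days, against 7.77, 6.90 and 7.31 in Sham-SCI. Chrna1, the alpha subunit, was 1.304 log2 units higher than Sham-SCI in SCI-ES 1 day and differed by −1.97 in SCI-ES 7 days, with every Chrna1 array of each group on that side. The Chrna1 arrays were at 13.39, 11.76 and 11.78 in SCI-ES 1 day and 9.78, 8.79 and 8.52 in SCI-ES 7 days, against 11.45, 10.35 and 11.21 in Sham-SCI. SCI-ES 1 day replicate 1 was well above the other 2 arrays of its group, and the SCI arrays were at 10.66, 13.46 and 10.53, so that the highest value was in an unstimulated rat. Chrnd, the delta subunit, was 1.148 higher in SCI-ES 1 day and differed by −1.89 in SCI-ES 7 days. The test of difference among the 4 transected groups gave an unadjusted p of 0.00324 for Chrna1 and 0.00577 for Chrnd, and an adjusted limma p of 0.527 for both.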

How the results depend on the processing

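The pooled count was 243 genes, the held count 173, the count called in every single comparison 11 and the count that differed among transected groups 0, and these 4 counts moved as follows. Leaving out each array in turn gave 21 to 434 pooled, 19 to 266 held, 2 to 20 called in every comparison and 0 to 19 among transected groups. The lowest pooled and held counts were without Sham-SCI replicate 3, the highest without SCI-ES 7 days replicate 3, and the 19 without SCI-ES 1 day replicate 2. The held count was 36 without Sham-SCI replicate 1, 104 without replicate 2 and 114 without SCI-ES 7 days replicate 1. Array weights gave 735, 358, 101 and 1114. Genes called in every comparison numbered 23 among genes with a variance above the median, 18 with arrays centred on their median, and 27 in 1 fit of all 33 arrays, where 3 genes differed among transected groups. With the replicate number as a block, which the pairing check did not call for, 6 genes were called in every comparison, 205 pooled and 143 held. No fold minimum gave 366 pooled and 366 held, a 2-fold minimum 113 and 73. The methods' one-way test gave 1 gene after adjustment and 332 without. Leaving out SCI gave 116 pooled and 97 held, and leaving out SCI-ES 1 day 284 held and 34 called in every remaining comparison. Sham-GA arrays as the control gave 694, 349 and 117, and GA arrays 1982, 1214 and 858. The cause of these moves was not tested. Of 5393 log2 differences of named genes over all alternatives, 4601 kept direction and side of the threshold, 560 lost the call, 120 gained it and 112 changed sign, of which 86 were called neither as reported nor under the alternative. The other 26 are as follows. With Sham-GA as control Bmp1 was at −0.0692, Myh4 3.987 and Ppargc1a 0.7761. With GA as control Bgn was at −0.0792, Bmp1 −0.145, Col1a1 −0.0461, Col3a1 −0.0699, Cthrc1 −0.150, Fap −0.118, Fgfr1 −0.115, Mmp14 −0.111, Postn −0.0279, Sfrp2 −0.000428 and Vcam1 −0.119, and, called with the opposite sign to the reported value, Ankrd1 −2.454, Atf3 −1.396, Lcn2 −0.9428 and Rpl3 −0.7142, while Dkk2 was at 0.134, Gbe1 0.224, Kcnj11 0.309 and Rcan2 0.128, and, called, Mlxipl 0.5964, Myh4 3.766, Ppargc1a 1.755 and Ppargc1b 0.7463. With single days of the further experiment as the control, chosen after seeing the data, the median of the 101 held rises changed sign at 7 days, at −0.367 against Sham-GA and −0.521 against GA, and that of the 72 held falls kept its sign at every day.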

Other observations

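Several held genes that the gene lists do not cover were picked out after their values were seen. Prox1, a transcription factor of slow fibers in mice, differed by −1.72 ± 0.39 (SE, limma adjusted p = 0.0365), and Vgll2, a cofactor that favours slow fiber genes in mice, by −1.10 ± 0.26 (adjusted p = 0.0391). Vgll2 was at 8.11 to 9.57 on transected arrays and 9.81 to 9.96 on Sham-SCI arrays, with no overlap, while Prox1 overlapped. Pleiotrophin, Ptn, and midkine, Mdk, related heparin-binding growth factors, were higher by 1.17 ± 0.23 (adjusted p = 0.0192) and 1.06 ± 0.25 (adjusted p = 0.0440), with no overlap in either. The quinone reductase Nqo1 differed by −1.40 ± 0.30 (adjusted p = 0.0290), at −1.36 in SCI, −0.90 in SCI-ES 1 day, −1.73 in SCI-ES 3 days and −1.62 in SCI-ES 7 days.

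Lists without a called gene included 36 cytosolic ribosomal proteins, with a median of 0.00892, 20 genes of the Notch pathway, with a median of −0.0145, and 30 proteasome genes, of which 25 were below Sham-SCI (median −0.152). In SCI-ES 1 day the proteasome median was 0.0992, against −0.123 in SCI, and that difference was not tested. Of 18 myogenic and satellite cell genes only the adhesion molecule Vcam1 was called (0.91, adjusted p = 0.0365). Of 51 olfactory receptors, which muscle should lack, none was called, but 41 were below Sham-SCI and the median was −0.118. Olr59 differed by −0.54 (limma adjusted p = 0.00364) and was not called because it fell short of 1.5-fold.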
